A study of Mus musculus with 12 samples.

Results

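The genes described are 9 members of the leukocyte adhesion system, taken by symbol from the 54532 genes listed in every count file: the integrin alpha chains Itgam, Itgal, Itgax and Itga4, the integrin beta chains Itgb1, Itgb2 and Itgb7, and the cell-surface ligands Icam1 and Vcam1. Itgb7 entered the set because of its pattern with succinate, so its succinate values are a description and carry no test. RNA was sequenced from bone marrow monocytes of mice, sorted as CD11b+ and Ly6C-high and kept in culture with or without lipopolysaccharide (LPS), the outer-membrane glycolipid of Gram-negative bacteria that activates cells through TLR4. The 4 groups, with 3 libraries each, were monocytes of succinate mice given LPS for 4 h, monocytes of control mice given LPS for 4 h, unstimulated monocytes of succinate mice and unstimulated monocytes of control mice. Succinate mice had received 300 mM succinate for 7 days, and control mice none. The sources used here do not give strain, age, the route of succinate or the dose of LPS. They also leave unsaid whether a group's 3 libraries are 3 animals, and the p-values therefore reflect library-to-library spread that may be technical. The design puts 2 questions to each gene: what LPS did in cells of either kind of mouse, and whether earlier succinate changed the level with or without LPS.

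Integrins are receptors made of 1 alpha and 1 beta chain, and the pairing sets what they bind. The beta-2 chain, Itgb2, is restricted to leukocytes and pairs with Itgal to form LFA-1, which binds Icam1, with Itgam (CD11b) to form Mac-1, and with Itgax (CD11c). The alpha-4 chain, Itga4, pairs with Itgb1 to form VLA-4, which binds Vcam1 and fibronectin, or with Itgb7 to form a receptor for the gut vascular ligand Madcam1. Monocytes use these receptors to arrest on vessel walls and to stay in or leave the bone marrow.

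Promoter sequences were available for 6 of the 9 genes, from RefSeq on GRCm38.p6. Those of Icam1 and Itgb7 are printed because these genes had the highest rise and the only fall among the 9. Each is written 5′ to 3′ on the gene's own strand and ends before the annotated transcript, and capitals mark matches to GGAANTTCC, a form of the NF-kB binding motif, and to TTCNNNGAA, the form bound by STAT proteins. The Icam1 promoter lies at chr9:21015690-21015939, plus strand, and the Itgb7 promoter at chr15:102231945-102232185, minus strand.
Icam1: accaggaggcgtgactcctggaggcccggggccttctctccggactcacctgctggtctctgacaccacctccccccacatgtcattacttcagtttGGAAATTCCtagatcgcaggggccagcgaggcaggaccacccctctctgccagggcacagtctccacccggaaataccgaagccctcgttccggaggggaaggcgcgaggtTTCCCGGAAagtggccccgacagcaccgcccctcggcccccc
Itgb7: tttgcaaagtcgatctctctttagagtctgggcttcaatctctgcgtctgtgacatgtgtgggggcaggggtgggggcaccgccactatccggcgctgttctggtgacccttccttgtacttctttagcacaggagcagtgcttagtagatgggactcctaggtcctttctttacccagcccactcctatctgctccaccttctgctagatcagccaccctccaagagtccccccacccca
Both strands of all 6 windows, each from 250 bases before to 50 bases after the RefSeq start, were searched. GGAANTTCC was found in Icam1 alone, as GGAAATTCC at positions -153 to -145 from the RefSeq start, and 0.928% of 32851 mouse promoters hold it. TTCNNNGAA was also found in Icam1 alone among the 6, as TTCCCGGAA at -42 to -34, and 8.30% of promoters hold it. The 10-letter NF-kB consensus was found in 0 of the 6 and in 8.46% of all promoters. The Itgb7 window matched only GAGGAAGT, a PU.1-type ETS motif, on the opposite strand at positions 1 to 8, which 3.20% of promoters hold. TATAAA, found in 13.6% of promoters, occurred in Icam1 at positions 14 to 19 from the RefSeq start, which is chr9:21015940. That match lies upstream of the Icam1 gene start in GENCODE M21, chr9:21015985. These motifs do not overlap each other in these windows.

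Total counts per library ranged from 15975882 to 18306747, and all 9 genes passed the filter on low counts that left 14324 tested genes. Levels are counts scaled to the TMM-normalised library size (CPM). The label Ly6C-high monocyte fitted its markers: all 8 were detected in every library, with Ly6c2, the antigen of the sort, at 1277 CPM in succinate LPS, 1233 CPM in control LPS, 572 CPM in succinate unstimulated and 593 CPM in control unstimulated cells. Genes of neutrophil granules and of myeloid progenitors were also high, with summed marker levels of 3994 to 9739 CPM and 2077 to 4686 CPM. Summed markers of Ly6C-low monocytes were at 96.4 to 163 CPM and those of macrophages at 103 to 427 CPM. The sums were 14.1 to 30.8 CPM for conventional dendritic cells, 3.91 to 11.7 CPM for plasmacytoid dendritic cells and 20.4 to 50.7 CPM for mast cells, basophils and eosinophils. B and plasma cell markers summed to 86.9 to 249.7 CPM, most of it Ighm, and T and NK cell markers to 81.9 to 222 CPM, most of it Il7r. Erythroid, megakaryocyte and endothelial or stromal markers summed to 3.49 to 55.1, 0.256 to 1.59 and 4.85 to 45.6 CPM, and Gp1bb of platelets had no count. The libraries also formed 2 classes by the mean level of 5 genes (S100a4, Rpl24 and 3 ribosomal or predicted pseudogenes), 7 low and 5 high. All 3 succinate LPS libraries were in the low class, with control LPS replicates 1 and 2 and replicate 1 of each unstimulated group. An LPS comparison within that class therefore has a single unstimulated library, assumed to vary like the others, and a call lost there says little about the class itself.

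LPS raised both ligands by more than it moved any of the 7 integrin chains among the 9 genes, raised Itgal and Itgb1 modestly in cells of both kinds of mouse, and lowered Itgb7. In succinate mice 6 of the 9 genes were called, 5 up and 1 down, beside 30.2% of all tested genes, 14.1% up and 16.2% down. In control mice 7 of the 9 were called, 6 up and 1 down, beside 30.1% of all tested genes, 15.3% up and 14.8% down. LPS and unstimulated libraries did not overlap for 6 of the 9 genes in succinate mice and 8 of the 9 in control mice, beside 41.4% and 45.5% of all tested genes. The median log2 fold change of the 9 genes was 0.51 in succinate and 0.55 in control mice, beside -0.017 and -0.004 over all tested genes. Calls used edgeR's quasi-likelihood test with Benjamini-Hochberg adjustment over all tested genes, at an adjusted p below 0.05. In bulk RNA, fewer cells of a type and less RNA per cell cannot be told apart.

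**Figure D1:**
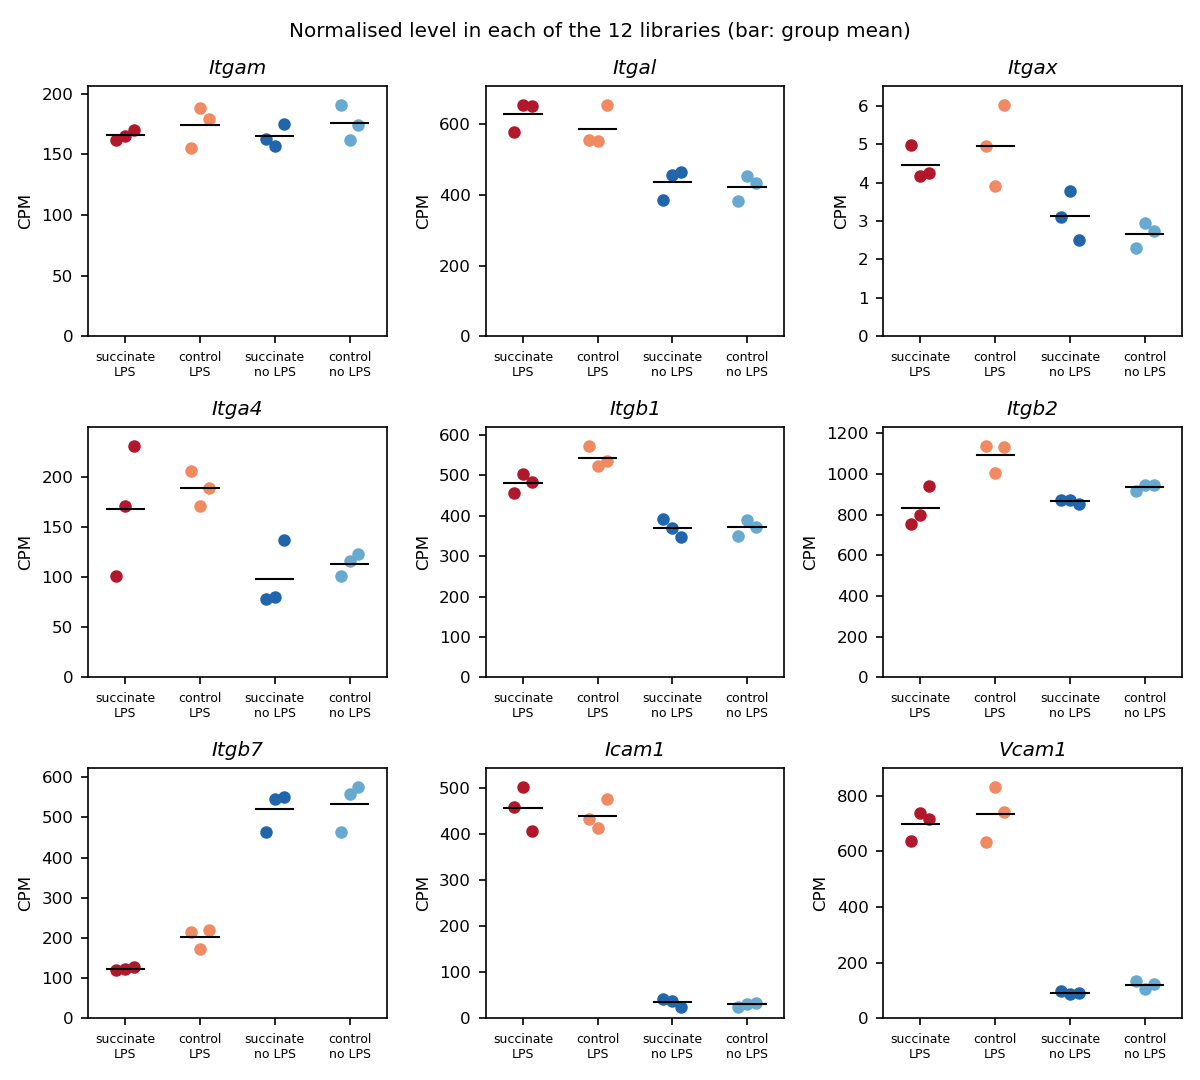
Level of each gene (CPM, linear axis from 0) in each of the 12 libraries, with points for libraries and bars for group means (n = 3). Icam1 and Vcam1 stand far higher in all 6 LPS libraries, Itgb7 stands lower in all 6, and Itgam lies between 155 and 191 CPM throughout.

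Icam1, the ligand of LFA-1 and Mac-1, is encoded at chr9:21015985-21028817, plus strand (GRCm38). It had 459, 503 and 407 CPM in succinate LPS cells, against 41.9, 36.5 and 25.4 CPM in succinate unstimulated cells. The counterparts in control mice were 432, 412 and 475 CPM with LPS and 25.4, 31.8 and 33.3 CPM without. All LPS libraries lay above all unstimulated ones, and within either state the succinate and control values overlapped. The rise was 13.2-fold in succinate mice (log2 3.72 ± 0.18 SE, adjusted p 2.11e-09, edgeR) and 14.6-fold in control mice (log2 3.87 ± 0.18, adjusted p 1.28e-09, edgeR).

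Vcam1, the ligand of VLA-4, is encoded at chr3:116109949-116129688, minus strand. Its level was 638, 737 and 716 CPM in succinate LPS cells, against 98.6, 86.7 and 90.5 CPM in succinate unstimulated cells. In control mice it was 634, 833 and 741 CPM with LPS, against 134, 105 and 125 CPM without. The LPS and unstimulated libraries were again fully apart, and the succinate unstimulated libraries all lay below the control unstimulated ones. LPS raised it 7.58-fold in succinate mice (log2 2.92 ± 0.13, adjusted p 1.93e-09, edgeR) and 6.06-fold in control mice (log2 2.60 ± 0.13, adjusted p 2.93e-09, edgeR). Vcam1 is also made by marrow stroma, endothelium and macrophages. Of the 6 endothelial and stromal markers, Kdr alone passed the filter on low counts. It averaged 6.82 CPM in succinate LPS, 11.7 CPM in control LPS, 30.1 CPM in succinate unstimulated and 39.3 CPM in control unstimulated cells. Among macrophage markers, C1qa had 1 to 9 counts per library, while Spic averaged 115 CPM in succinate LPS, 178 CPM in control LPS, 33.1 CPM in succinate unstimulated and 30.4 CPM in control unstimulated cells. Adgre1 averaged 128, 139, 92.1 and 112 CPM in the same 4 groups, and Mrc1 2.24, 2.78, 2.28 and 2.11 CPM. Of the 4 macrophage markers tested, 1 rose and 0 fell with LPS in either kind of mouse. The part of such cells in the Vcam1 rise was not tested.

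Of the beta-2 family, Itgal rose with LPS and Itgam and Itgb2 did not pass the test. Its 3 alpha chains lie on the plus strand of chromosome 7, Itgal at chr7:127296260-127335138, Itgam at chr7:128062640-128118491 and Itgax at chr7:128129547-128150657. Itgam, which the sort used as CD11b in every group, ranged from 162 to 170.4 CPM in succinate LPS, 155 to 188 CPM in control LPS, 157 to 175 CPM in succinate unstimulated and 162 to 191 CPM in control unstimulated cells. Its LPS log2 fold change had 95% intervals of -0.22 to 0.23 in succinate and -0.24 to 0.21 in control mice. Itgal, the alpha chain of LFA-1, averaged 628 ± 44.6 CPM in succinate LPS against 436 ± 43.4 CPM in succinate unstimulated cells, and 588 ± 59.2 CPM in control LPS against 423 ± 37.0 CPM in control unstimulated cells (SD, n = 3 each). LPS libraries lay above unstimulated ones in both kinds of mouse, and the log2 rise was 0.53 ± 0.12 in succinate (adjusted p 0.00307, edgeR) and 0.47 ± 0.12 in control mice (adjusted p 0.00617, edgeR). Itgax, the chain of CD11c and a marker used for dendritic cells, was near the lower end of what could be measured, at 4.97, 4.17 and 4.25 CPM in succinate LPS against 3.11, 3.79 and 2.50 CPM in succinate unstimulated cells. It had 4.94, 3.90 and 6.03 CPM in control LPS against 2.31, 2.95 and 2.75 CPM in control unstimulated cells. The call passed in control mice (log2 0.89 ± 0.24, adjusted p 0.0102, edgeR) and missed in succinate mice (log2 0.51 ± 0.23, adjusted p 0.119, edgeR), and the difference between these effects, log2 -0.38 ± 0.33, had a 95% interval of -1.1 to 0.33. Within the low library class, 2 control LPS libraries against 1 unstimulated library gave log2 0.95 (adjusted p 0.106, edgeR). Markers of conventional dendritic cells summed to 18.1 to 20.4 CPM in succinate LPS, 21 to 30.8 CPM in control LPS, 15.6 to 22.3 CPM in succinate unstimulated and 14.1 to 19.3 CPM in control unstimulated cells. Of the 5 tested markers, 1 rose and 1 fell in succinate mice, and 2 rose and 1 fell in control mice. Their median log2 fold changes were -0.8 and -0.47. Xcr1 averaged 11.2, 17.1, 4.73 and 3.02 CPM in the same 4 groups, and Clec10a 1.95, 3.12, 8.21 and 8.82 CPM. The part of these cells in the Itgax values was not tested.

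Itgb2, the shared beta-2 chain, is encoded at chr10:77530252-77565708, plus strand. It had 752, 799.9 and 942 CPM in succinate LPS cells and 1140.4, 1004 and 1134 CPM in control LPS cells. Without LPS it had 872, 872 and 854 CPM in succinate cells and 915, 946 and 946 CPM in control cells. The control LPS libraries were the highest, and the succinate LPS libraries straddled the unstimulated succinate level. LPS passed the test in neither kind of mouse, with log2 fold changes of -0.06 ± 0.11 in succinate (adjusted p 0.723, edgeR) and 0.22 ± 0.11 in control mice (adjusted p 0.136, edgeR). Neutrophils carry Itgam and Itgb2 too, and neutrophil markers summed to 7205 to 7578 CPM in succinate LPS, 6959 to 9739 CPM in control LPS, 3994 to 5199.7 CPM in succinate unstimulated and 4342 to 7083 CPM in control unstimulated cells. Of the 7 tested markers, 2 rose and 2 fell in succinate mice, and 3 rose and 2 fell in control mice. Ngp averaged 4694, 5140.4, 2716 and 3248 CPM in the same 4 groups, and Mmp8 44.6, 54.3, 111 and 147 CPM. The part of neutrophils in the Itgam and Itgb2 values was not tested.

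In the alpha-4 group LPS raised Itga4 and Itgb1 and lowered Itgb7. Itgb1, the widely expressed beta chain (chr8:128685654-128733200, plus strand), had 457, 503 and 484 CPM in succinate LPS against 392, 369 and 348 CPM in succinate unstimulated cells. In control mice it had 574, 524 and 535 CPM with LPS against 350.4, 389.8 and 373 CPM without. Both pairs of groups were apart, and the log2 rise was 0.38 ± 0.10 in succinate (adjusted p 0.00748, edgeR) and 0.55 ± 0.10 in control mice (adjusted p 0.000451, edgeR). Within the low library class, 3 succinate LPS libraries against 1 unstimulated library gave log2 0.32 (adjusted p 0.146, edgeR).

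Itga4 (chr2:79255426-79333123, plus strand) had the highest spread between replicates of the 9 genes in both succinate groups. It had 101, 171 and 231 CPM in succinate LPS against 78.2, 80 and 137 CPM in succinate unstimulated cells, and 206, 171 and 189 CPM in control LPS against 100.5, 116 and 123 CPM in control unstimulated cells. The control groups were apart, whereas replicate 1 of the succinate LPS group lay below replicate 3 of the succinate unstimulated group. Its coefficient of variation was 38.7% in succinate LPS and 34.0% in succinate unstimulated cells, against 9.22% in control LPS and 10.2% in control unstimulated cells. The log2 rise with LPS was 0.77 ± 0.25 in succinate (adjusted p 0.0311, edgeR) and 0.74 ± 0.25 in control mice (adjusted p 0.0384, edgeR). Single libraries decided these calls, as leaving out 1 library at a time ended the call in 4 of 12 cases in succinate mice (log2 0.47 to 1.09, adjusted p up to 0.178) and in 6 of 12 in control mice (log2 0.66 to 0.83, adjusted p up to 0.116), by edgeR. Within the low library class, against 1 unstimulated library each, the log2 rise was 1.12 in succinate (adjusted p 0.1) and 0.93 in control mice (adjusted p 0.192, edgeR).

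Itgb7, the second partner of Itga4, is encoded at chr15:102215995-102231944, minus strand. It had 121, 122 and 127 CPM in succinate LPS against 463, 545 and 552 CPM in succinate unstimulated cells. In control mice it had 215, 173 and 221 CPM with LPS against 465, 558 and 577 CPM without. Every LPS library lay below every unstimulated one. LPS lowered it 4.22-fold in succinate mice (log2 -2.08 ± 0.13, adjusted p 1.93e-08, edgeR) and 2.62-fold in control mice (log2 -1.39 ± 0.12, adjusted p 6.89e-07, edgeR). The succinate LPS and control LPS libraries were part of the pattern for which Itgb7 was chosen. That choice may enlarge the fall in succinate mice and may also shift the fall in control mice. The larger fall in succinate mice is a description without a test. Within the low library class, against 1 unstimulated library each, the log2 changes were -1.88 in succinate and -1.24 in control mice. Lymphocytes, mast cells and eosinophils are known carriers of Itgb7. T and NK cell markers summed to 81.9 to 136 CPM in succinate LPS, 133 to 197 CPM in control LPS, 121 to 162 CPM in succinate unstimulated and 202 to 222 CPM in control unstimulated cells, with 7 of the 12 genes, among them Cd3e, Cd4 and Cd8a, too low to be tested. Il7r carried the lower sums with LPS, averaging 64.8 CPM in succinate LPS, 137 CPM in control LPS, 117 CPM in succinate unstimulated and 188 CPM in control unstimulated cells. Of the 5 tested markers 2 rose and 1 fell in succinate mice and none passed in control mice, with median log2 fold changes of 0.57 and 0.58, and Nkg7, for one, averaged 36.6, 25.5, 20.6 and 22.7 CPM in the same 4 groups. B and plasma cell markers summed to 137 to 178 CPM in succinate LPS, 86.9 to 151 CPM in control LPS, 182 to 249.7 CPM in succinate unstimulated and 137 to 159.9 CPM in control unstimulated cells. Markers of mast cells, basophils and eosinophils summed to 29.2 to 50.7 CPM in succinate LPS, 25.1 to 48.9 CPM in control LPS, 25.2 to 26.7 CPM in succinate unstimulated and 20.4 to 23.8 CPM in control unstimulated cells. The part of these cell types in the Itgb7 values was not tested.

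**Figure D2:**
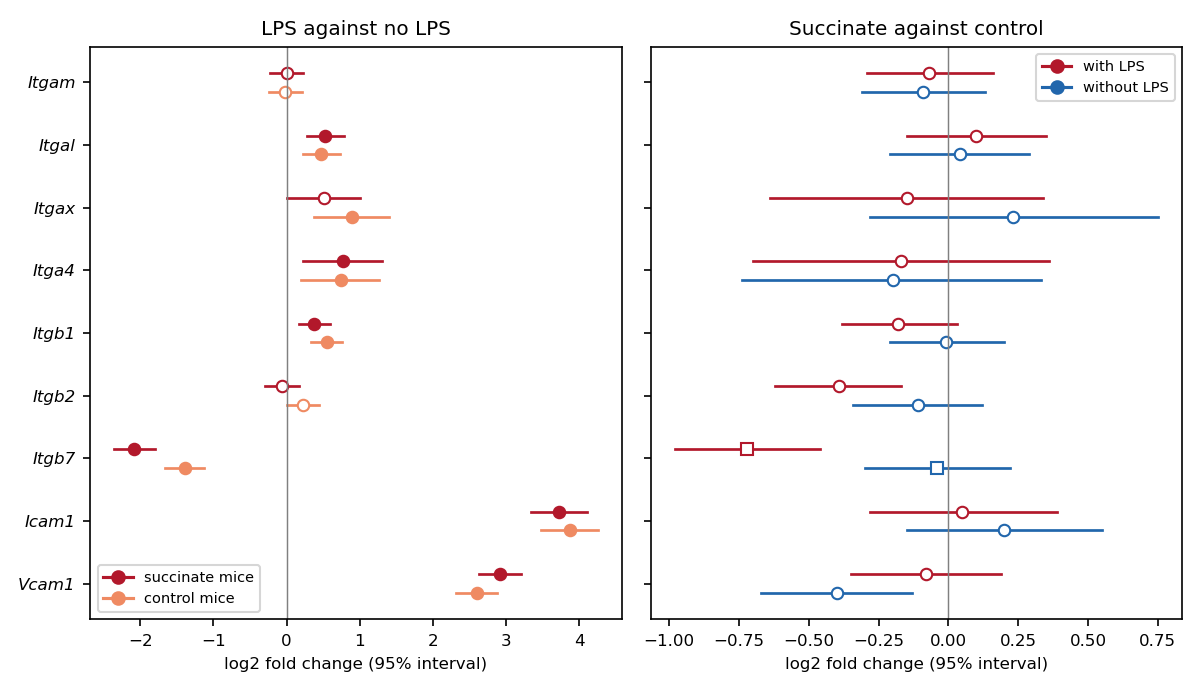
Log2 fold changes with 95% intervals for the 9 genes, LPS against no LPS at left and succinate against control at right; filled circles passed the adjusted threshold, open circles did not, and squares mark Itgb7 where it was not tested. LPS intervals of Icam1, Vcam1 and Itgb7 lie far from 0, while no circle on the succinate side is filled.

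Taken per length, the make-up of the beta chains differed between the LPS states. Dividing CPM by the union of annotated exons (CPM per kb), Itgb7 stood at 44.5 CPM per kb in succinate LPS, 73.4 in control LPS, 188 in succinate unstimulated and 193 in control unstimulated cells. Itgb1 stood at 118, 133, 90.6 and 91.0 CPM per kb in the same 4 groups. The ratio of Itgb7 to Itgb1 was therefore 0.378 ± 0.0181 in succinate LPS, 0.550 ± 0.0612 in control LPS, 2.08 ± 0.305 in succinate unstimulated and 2.11 ± 0.161 in control unstimulated cells (SD, n = 3 each), with Itgb1 the more abundant in every LPS library and Itgb7 in every unstimulated one. Of the summed per-length level of the 3 beta chains, Itgb7 made up 10.3% with LPS and 33.4% without in succinate mice, and 13% with LPS and 32.6% without in control mice. The succinate and control ratios are descriptions, since Itgb7 was chosen on that contrast.

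**Figure D3:**
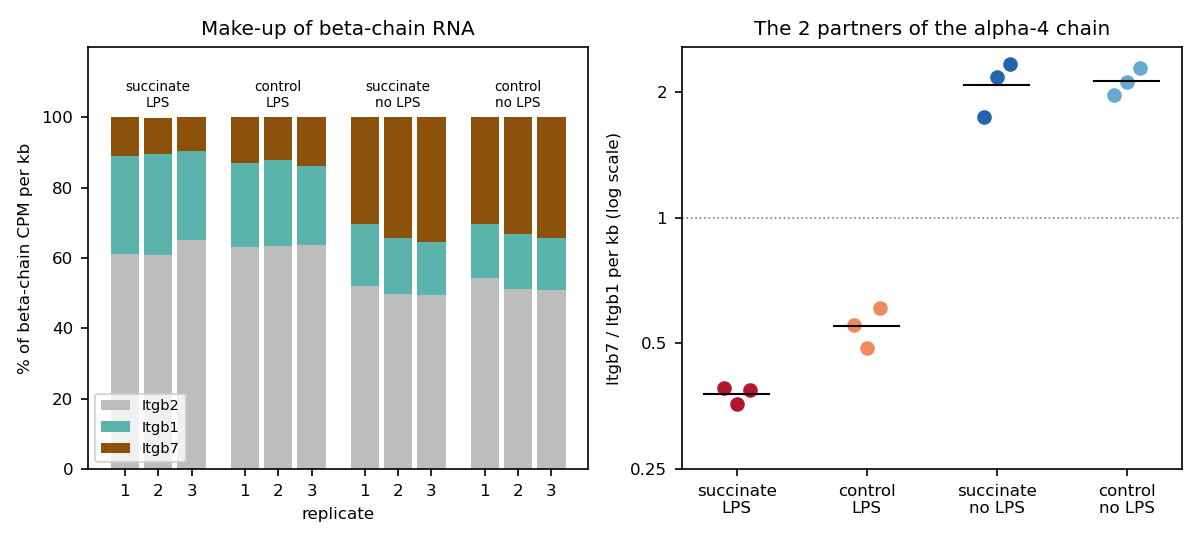
Left, share (%) of the summed per-length level of Itgb2, Itgb1 and Itgb7 in each library; right, ratio of Itgb7 to Itgb1 per kb on a log axis, with points for libraries and bars for means. The ratio is above 1 in all 6 unstimulated libraries and below 1 in all 6 LPS libraries.

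In unstimulated control cells the per-length order was Itgb2 (307 CPM per kb), Itgb7 (193), Itgb1 (91.0), Itgal (64.4), Itgam (35.0), Vcam1 (13.7), Itga4 (8.11), Icam1 (6.92) and Itgax (0.556). The per-library ranges of neighbours were apart at every step except between Itga4 (7.19 to 8.79 CPM per kb) and Icam1 (5.83 to 7.63 CPM per kb). In unstimulated succinate cells the order was Itgb2 (284 CPM per kb), Itgb7 (188), Itgb1 (90.6), Itgal (66.4), Itgam (32.9), Vcam1 (10.4), Icam1 (7.94), Itga4 (7.04) and Itgax (0.653), with Itga4 overlapping both Icam1 and Vcam1. In succinate LPS cells Itgb2 (272 CPM per kb) led, followed by Itgb1 (118), Icam1 (105), Itgal (95.7), Vcam1 (78.6), Itgb7 (44.5), Itgam (33.0), Itga4 (12) and Itgax (0.929). In control LPS cells the order was Itgb2 (358 CPM per kb), Itgb1 (133), Icam1 (101), Itgal (89.5), Vcam1 (83.0), Itgb7 (73.4), Itgam (34.6), Itga4 (13.5) and Itgax (1.03). Icam1 and Itgal overlapped in both LPS groups, as did Icam1 and Itgb1 in succinate LPS cells, and Vcam1 with Itgb7 and with Itgal in control LPS cells. The ligands have transcripts much shorter than the union of their exons. Per length of the longest transcript, Icam1 and Vcam1 stood above Itgb1 with LPS, at 180, 170.5 and 126 CPM per kb in succinate LPS and 173, 180.1 and 143 CPM per kb in control LPS cells. The place of Itgam depends on how reads were assigned: 3450 of its 5024 exonic bases are shared with Gm49368, a same-strand gene that had 0 to 10 counts. With the shared bases left out of the length, a choice made after seeing the data, Itgam stood at 105 CPM per kb in succinate LPS, 110.4 in control LPS, 105 in succinate unstimulated and 112 in control unstimulated cells. The summed alpha chains of the beta-2 family were lower than Itgb2 on either length. Itgb2 exceeded them 2.10-fold in succinate LPS, 2.87-fold in control LPS, 2.85-fold in succinate unstimulated and 3.07-fold in control unstimulated cells on the full length, against 1.35-, 1.79-, 1.66- and 1.74-fold without the shared bases.

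Succinate alone changed none of the genes by the test. Without LPS, 0 of the 8 genes tested passed, in a comparison with 0% of 14324 genes called by edgeR; 1 of the 8 and 535 of all genes had an unadjusted p below 0.05, DESeq2 called 0 of the 8 and 1 gene in all, and limma-voom called 0 of either. That member was Vcam1, whose log2 difference was -0.40 ± 0.13 (unadjusted p 0.00655, adjusted p 0.958, edgeR), with all 3 succinate libraries below all 3 control ones. Itgb2 was also lower in every succinate library (log2 -0.11 ± 0.11, adjusted p 0.958, edgeR), and 4.27% of all genes were apart in that direction. Icam1 differed by log2 0.20, with a 95% interval of -0.15 to 0.55. Itgb7 overlapped between the groups, with a log2 difference of -0.04.

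With LPS, 0 of the 8 genes passed between succinate and control mice, in a comparison with 0.0628% of all genes called by edgeR, all of them lower in succinate cells. One of the 8 and 1680 of all genes had an unadjusted p below 0.05, limma-voom called 0 of the 8 and 34 genes in all, and DESeq2 called 1 of the 8 and 339 genes in all. The gene in question was Itgb2, with a log2 difference of -0.39 ± 0.11 on the values given above (95% interval -0.62 to -0.17, unadjusted p 0.0023, adjusted p 0.135, edgeR). It passed without succinate LPS replicate 3 (log2 -0.50, adjusted p 0.0457, edgeR) and in DESeq2 (adjusted p 0.00926). Scaling by library size alone left log2 -0.27 (adjusted p 0.260, edgeR), a setting in which the median of all genes shifted to 0.107. Itgb1 was apart in the same direction (log2 -0.18 ± 0.10, adjusted p 0.512, edgeR), and 10.2% of all genes were. The log2 differences of Icam1 and Vcam1 had 95% intervals of -0.28 to 0.39 and -0.35 to 0.19.

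Itgb7, chosen on this contrast, was lower in each succinate LPS library than in each control LPS library, and the log2 difference was -0.72 ± 0.12, 1.65-fold lower, with a range of -0.83 to -0.60 over 22 alternative settings. The difference between its LPS effects in succinate and control mice was log2 -0.68 ± 0.17. Within the low library class, which holds all 3 succinate and 2 of the control LPS libraries, the succinate difference with LPS was -0.66. All of these values come from the libraries on which Itgb7 was chosen. Their standard errors, range and within-class value are descriptions and add no support. Mitochondrially encoded genes took 1.22% to 1.26% of counts in succinate LPS libraries and 0.984% to 1.07% in control LPS libraries, and the TMM factors were 1.016 to 1.056 and 0.936 to 0.965; their part in the Itgb7 difference was not tested. For the other 8 genes the test of whether the LPS effect differed between succinate and control mice passed in 0 (0% of all genes called by edgeR; 0 of the 8 and 560 of all genes with an unadjusted p below 0.05; DESeq2 called 0 and 3, limma-voom 0 and 0). The largest of these 8 differences were Itgax at log2 -0.38 ± 0.33, Vcam1 at 0.32 ± 0.18 and Itgb2 at -0.28 ± 0.15.

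Other genes of the adhesion pathway moved in both directions with LPS. The counts of the 4 lists that follow stand beside 14.1% up and 16.2% down of all tested genes in succinate mice, 15.3% up and 14.8% down in control mice, and medians over all genes of -0.017 and -0.004. Of 12 tested other integrin chains, 2 rose and 6 fell in succinate mice, and 2 rose and 5 fell in control mice, with median log2 fold changes of -0.36 and -0.69. Itgb8, a beta chain known for activating latent TGF-beta, averaged 5.93 ± 2.56 CPM in succinate LPS against 0.621 ± 0.378 CPM in succinate unstimulated cells, and 11.1 ± 6.78 CPM in control LPS against 0.978 ± 0.146 CPM in control unstimulated cells (log2 3.24 ± 0.50 and 3.5 ± 0.47). Itga5, the alpha chain of the fibronectin receptor, rose to 527 ± 29.2 CPM in control LPS cells, against 207 ± 32.7 CPM in control unstimulated cells (log2 1.35 ± 0.17, adjusted p 1.89e-05, edgeR). It rose in succinate mice too (log2 1.05 ± 0.17, adjusted p 0.000203, edgeR). Itga1, a collagen-binding chain, fell by 1.78 ± 0.20 (log2) in succinate mice and fell by 1.60 ± 0.20 in control mice. Itga6, a laminin-binding chain, fell by 1.43 ± 0.19 in succinate mice and fell by 1.63 ± 0.19 in control mice. Itgav, which binds vitronectin, had 190.5 ± 32.3 CPM in succinate LPS against 448 ± 51.2 CPM in succinate unstimulated cells (log2 -1.23 ± 0.15, adjusted p 1.62e-05, edgeR). It fell in control mice as well (log2 -0.99 ± 0.15, adjusted p 0.000117, edgeR).

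Among 26 tested activation and adaptor proteins, which link integrin tails to the cytoskeleton and to kinases, 8 rose and 4 fell in succinate mice, and 9 rose and 2 fell in control mice, with medians of 0.14 and 0.19, beside 30.2% and 30.1% of all tested genes called in either direction. Fyb, the adaptor ADAP, rose by log2 1.91 ± 0.17 in succinate and 2.05 ± 0.17 in control mice. Syk, a kinase downstream of beta-2 integrins, rose by 0.73 ± 0.12 and 0.98 ± 0.12. Cyth1, a cytohesin that binds the beta-2 tail, fell to 74.5 ± 7.40 CPM in succinate LPS cells, against 184 ± 17.1 CPM in succinate unstimulated cells, and to 80.5 ± 7.05 CPM in control LPS cells, against 189 ± 15.2 CPM in control unstimulated cells.

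Of 22 tested other adhesion molecules, 1 rose and 5 fell in either kind of mouse, with medians of -0.17 in succinate and 0.03 in control mice, beside 30.2% and 30.1% of all tested genes called. The gene called up was Icam5 in succinate mice and, named after its values were seen, the hyaluronan receptor Cd44 in control mice (log2 0.64 ± 0.14, adjusted p 0.00207, edgeR). Each missed in the other kind of mouse, Icam5 with log2 1.89 ± 0.70 (adjusted p 0.0552) and Cd44 with 0.33 ± 0.14 (adjusted p 0.0819, edgeR). For neither gene did the difference between the LPS effects pass. With at least 1 CPM required in at least 6 libraries, 0 genes of this list rose in succinate mice. Adgre5 (CD97) fell by 1.17 ± 0.16 (log2) in succinate mice and fell by 1.37 ± 0.16 in control mice. Emb (embigin) fell by 0.91 ± 0.12 in succinate mice and fell by 0.84 ± 0.12 in control mice. Alcam, Icam2 (another LFA-1 ligand) and Cd99l2 also fell in both kinds of mouse. The log2 changes of Alcam were -0.72 ± 0.10 in succinate and -0.41 ± 0.10 in control mice. Those of Icam2 were -0.63 ± 0.16 and -0.89 ± 0.16. Those of Cd99l2 were -0.94 ± 0.27 and -1.57 ± 0.28 (adjusted p 0.0171 and 0.000588, edgeR). Icam5 had 63 counts over the succinate LPS libraries and 3 over the succinate unstimulated ones, a normalised ratio of 19.6 with an exact 95% counting interval of 6.41 to 97.6. That interval pools the libraries of each group and leaves out the spread between them.

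Of 10 tested matrix and plasma ligands of integrins, 0 rose and 7 fell in succinate mice, beside 16.2% of all tested genes down, and 0 rose and 5 fell in control mice, beside 14.8%, with medians of -1.13 and -0.79. Fn1, fibronectin, averaged 285 ± 86.2 CPM in succinate LPS against 873 ± 247 CPM in succinate unstimulated cells, and 460.1 ± 140.4 CPM in control LPS against 1093 ± 316 CPM in control unstimulated cells (log2 -1.61 ± 0.28 and -1.25 ± 0.28, adjusted p 0.000484 and 0.00329, edgeR). Thbs1, thrombospondin, was the most abundant in CPM, at 1749 ± 296 CPM in succinate LPS against 3720 ± 873 CPM in succinate unstimulated cells (log2 -1.09 ± 0.22, adjusted p 0.00129, edgeR), with a log2 change of -1.1 ± 0.22 in control mice. Tgfbi fell in succinate mice (log2 -1.18 ± 0.20) and missed in control mice (log2 -0.54 ± 0.20, adjusted p 0.0512, edgeR). Col4a1 fell in both, with log2 changes of -1.47 ± 0.31 in succinate and -1.75 ± 0.32 in control mice. Vwf, von Willebrand factor, had 10.3 ± 2.60 CPM in succinate LPS, 26.5 ± 6.27 CPM in control LPS, 46.3 ± 9.78 CPM in succinate unstimulated and 66.2 ± 4.31 CPM in control unstimulated cells. It was the only 1 of the 70 list genes tested that passed between succinate and control mice with LPS (log2 -1.36 ± 0.21, adjusted p 0.0294, edgeR). The call was lost with library size alone, with the compared groups alone, within the low library class and in 7 of the 12 fits that left out 1 library, namely each control unstimulated library, control LPS replicates 1 and 2 and succinate LPS replicates 1 and 2, where 0 matrix ligands passed. In that comparison 17 of the 70 had an unadjusted p below 0.05 and DESeq2 called 5. Vwf is a gene of endothelium and platelets, and the endothelial receptor Kdr, given above, ran in the same order over the 4 groups, with a part in the Vwf result that was not tested. Without LPS 0 of the 70 passed by edgeR (4 with an unadjusted p below 0.05, 0 by DESeq2 and by limma-voom), and 0 passed for the difference between the LPS effects (2 with an unadjusted p below 0.05, 0 by DESeq2 and by limma-voom).

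**Figure D4:**
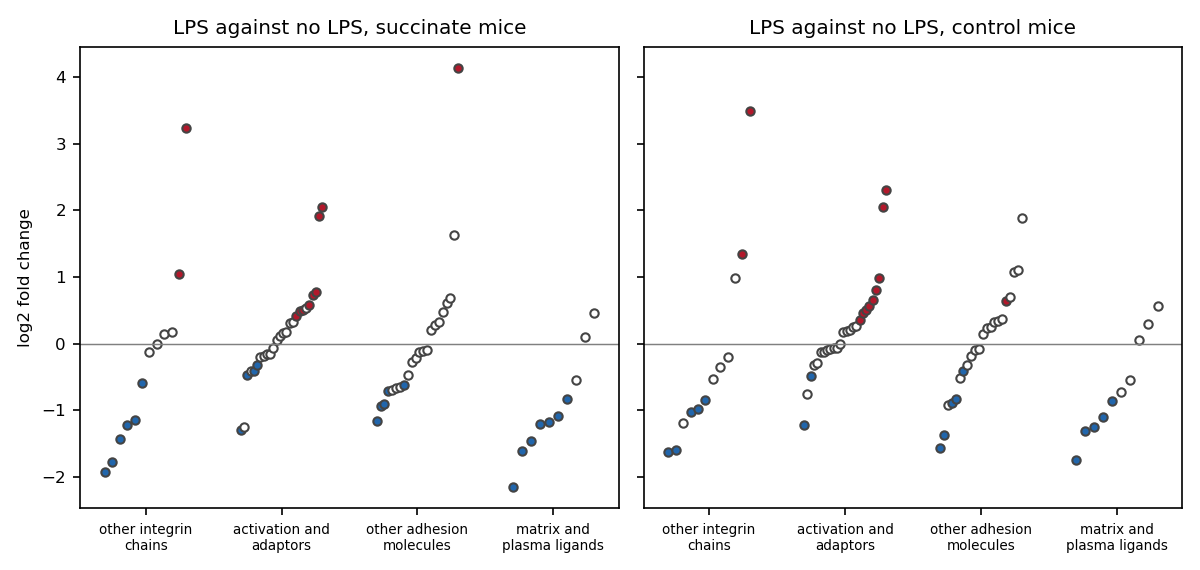
Log2 fold change with LPS of each tested gene in 4 adhesion pathway lists, succinate mice at left and control mice at right; red points were called up, blue points down, and white points did not pass. Matrix and plasma ligands have 7 and 5 blue points and no red one, while activation and adaptor proteins have 8 and 9 red points.

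The genes whose log2 CPM followed each of 3 members most closely over the 12 libraries were ranked by Pearson correlation among 8355 genes with at least 10 CPM in a group. These values describe libraries that share 2 LPS states and carry no test. Nearest to Itgb7 were Ptms (r = 0.991), then Plekhm2, Ripk3, Myo1c and Fnip2 (0.990 each). Fnip2, a folliculin-interacting protein, averaged 241 CPM in succinate LPS, 400.3 CPM in control LPS, 990.1 CPM in succinate unstimulated and 1047 CPM in control unstimulated cells. Nearest to Icam1 were the phosphodiesterase Pde4b (0.999), the inflammatory caspase Casp4 (0.997), the chemokine Cxcl10 (0.997), Marcksl1 (0.996) and the syndecan Sdc4 (0.996). Nearest to Vcam1 were endothelin Edn1 (0.995), the chemokine Ccl4 (0.993), haptoglobin Hp (0.993), Bcl2a1d (0.993), whose near-identical copies may share its reads, and AW112010 (0.992). Ranking by Spearman correlation kept 0 of the 5 for Itgb7, 2 for Icam1 and 1 for Vcam1.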

How the data were processed

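RNA-seq counts of 12 mouse libraries were used. The deposited files hold raw counts for each gene as whole numbers. Per the submitters' processing notes, the authors used Trim Galore and build mm10. Aligner, counter, annotation and strand setting: not given in the sources used here. The assignment of reads from overlapping genes is therefore unknown. Antisense or opposite-strand partners of Itga4 (Cerkl, 1 to 18 counts), Icam1 (Gm47079, 0 to 5) and Vcam1 (Gm43109, 0 to 15) had few counts.

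Counts were tested with edgeR 4.0.16 (R 4.3.3): filterByExpr left 14324 genes, scaling was by TMM, and a quasi-likelihood model took all 12 libraries, with a mean for each group (common coefficient of biological variation 0.167). Intervals are 95% and cover the spread between libraries, except the counting interval of Icam5, which covers counting error alone. The 5 contrasts were LPS in succinate mice, LPS in control mice, succinate with and without LPS, and the difference between the LPS effects. At this depth (15975882 to 18306747 counts per library) log2 fold changes had a median standard error of 0.19. Likeness used log2 CPM with a prior count of 2. Lengths and coordinates come from GENCODE M21 on GRCm38, which held 54495 of the 54532 identifiers. Within groups, chi-square per degree of freedom was at least 6.97, so no library was a copy of another.

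The 9 genes, the pathway and marker lists and the library classes were chosen with earlier results of these data known. The text names all 9 genes, up to 4 called genes with the smallest p per pathway list and contrast (1 such gene is not reported here), and the 5 genes most like Itgb7, Icam1 and Vcam1, leaving out predicted (Gm and a number), Rik-named, ribosomal protein and mitochondrial genes. The script was tested on simulated data. Alternatives were other scalings and filters, DESeq2 1.42.0, limma-voom (limma 3.58.1), replicate blocks, library classes and leaving out each library. Only between unstimulated groups did every library correlate best with its own replicate number. Deviations of same-numbered libraries there correlated at 0.12 to 0.26, and of differently numbered ones at -0.21 to 0.02. For the other pairs of groups the values were -0.13 to 0.38 and -0.33 to 0.29. In both unstimulated groups replicate 1 was in the low library class and replicates 2 and 3 in the high class. The part of class in that agreement was not tested.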

Additional observations from a re-analysis of the deposited data

How the results depend on the processing

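Icam1, Vcam1 and Itgb7 kept their LPS calls in both kinds of mouse under all 22 alternatives. For Itgb7 these settings reuse the LPS libraries on which it was chosen, so its stability is a description. The count of the 9 genes called with LPS stayed between 4 and 6 in succinate and 5 and 7 in control mice. With LPS, succinate against control gave 1 member by DESeq2 and 0 to 1 when leaving out 1 library, against 0 as reported. The replicate block changed no count of the 9 genes, but gave 77 genes in all against 9 for succinate with LPS, and 8 against 5 matrix ligands for LPS in control mice. For succinate with LPS, matrix ligands called numbered 0 with library size alone, with the compared groups alone and within 1 library class, and 0 to 2 when leaving out 1 library, against 1 (Vwf). Without the filter on low counts that contrast gave 3 integrin chains, 3 activation proteins, 2 adhesion molecules and 4 matrix ligands, and 1 matrix ligand came up without LPS. DESeq2 gave 1, 2 and 1 for the first 3 lists, and library class as a covariate 1 adhesion molecule. Within 1 library class, which has 1 unstimulated library per comparison, LPS called 4 integrin chains and 5 activation proteins in succinate mice, and 5 activation proteins and 2 matrix ligands in control mice. Over all genes, succinate with LPS gave 0 (library size alone), 694 (no filter), 30 (stricter filter), 0 (compared groups alone), 190 (class covariate), 1 (within 1 class), 34 (limma-voom), 339 (DESeq2) and 0 to 197 (leaving out 1 library). Without LPS the filter's removal gave 72 genes, and 71 for the difference between LPS effects. Within 1 class LPS called 2220 genes in succinate and 2098 in control mice, against 4331 and 4306. The share of Itgam among its 3 alpha chains was 25.5% in succinate LPS cells on the full length and 52.2% without shared bases. No result reversed. Depth limits Itgax, which had under 10 CPM in every library.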
